A study of Mus musculus with 8 samples.

Results

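The 10 genes described here encode the machinery that folds chromosomes into loops: the DNA-binding protein CTCF (Ctcf), the cohesin subunits (Smc1a, Smc3, Rad21, Stag1, Stag2), the cohesin loader (Nipbl), and the factors that release or hold cohesin (Wapl, Pds5a, Pds5b). They were taken by symbol from the 53465 genes listed in each count table. All 10 are protein-coding, and all 10 were among the 17291 genes abundant enough to be tested. RNA came from live thymocytes sorted as double positive for CD4 and CD8, taken from C57BL/6J mice and from NOD/ShiLtJ (NOD) mice, an inbred strain that becomes diabetic without treatment. No treatment, engineered allele, age or sex was stated for either strain. Each strain had 4 libraries, in pairs that carried the same B number and different T numbers, and the pairs were summed into 2 samples per strain, called sample 1 and sample 2 after the B number. The labels do not say whether each sample was a separate animal, and every p-value here reflects no more than how these samples scatter, possibly for technical reasons.

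Cohesin is a ring formed by the SMC1A and SMC3 proteins, closed by RAD21, to which 1 of the paralogs STAG1 or STAG2 is bound. The ring is loaded by NIPBL, extrudes DNA into a loop, and halts where it meets CTCF bound in the right orientation, while WAPL, with PDS5A or PDS5B, removes it from DNA. In double-positive thymocytes, where the T cell receptor alpha locus is rearranged, cohesin and CTCF are known to shape the receptor locus and its contacts with enhancers, and in dividing cells the same ring holds sister chromatids together. The series concerns how the genetic variation of NOD mice relates to chromatin folding in T cells, and the comparison made here is of RNA for the folding machinery itself between the strains.

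The libraries held between 8.527 and 30.371 M reads in genes, with NOD libraries the deeper. The lowest count of any member in a library was 2688, for Pds5b, so counting error was small beside the spread between libraries. Levels are given as CPM, counts per M reads in genes scaled by the TMM factors of edgeR. As a check of the sort, the C57BL/6J mean was 1251 ± 159 CPM for Cd4 and 1563 ± 120 CPM for Cd8a, and the NOD mean 1293 ± 66.4 and 1660 ± 30.0 CPM (SD, n = 2 summed samples). The 10 double-positive markers summed to 17594 to 21127 CPM in the C57BL/6J libraries and to 13724 to 16287 CPM in the NOD libraries, without overlap. None of the 10 passed the test, but 4 had an unadjusted p under 0.05 in edgeR: Cd8b1 (log2 fold change, NOD over C57BL/6J, of -0.68), the recombinase gene Rag1 (-0.61) and Dntt (-0.52) below 0, and Ptcra (0.79) above. The part of these differences in the members' values was not tested. Markers of B cells summed to 10.0 to 18.4 CPM per library, of erythroid cells to 1.32 to 13.6 CPM and of thymic epithelium to 4.16 to 8.05 CPM. Myeloid markers summed to 8.41 to 11 CPM in C57BL/6J and 12.3 to 23.2 CPM in NOD, without overlap, and 1 of the 6, Csf1r, was higher in NOD (2.47, adjusted p = 0.0233 in edgeR). No marker on these lists was at 0 in every library. For Smc1a and Stag2, the members on the X chromosome, the sex of the mice matters. Xist, the RNA of the inactive X, averaged 0.291 CPM (C57BL/6J) and 0.209 CPM (NOD), and the Y-linked Ddx3y 89.8 and 55.5 CPM. In every sample Xist was at 0.405 CPM or less and Ddx3y at 46.3 CPM or more, as in male mice. The Y-linked genes Ddx3y, Uty, Kdm5d and Eif2s3y were all lower in NOD, and Kdm5d passed (-0.82, adjusted p = 0.0283 in edgeR).

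One sample stood apart in its proliferation genes, on a list chosen with earlier results of these data known. A list of 40 proliferation genes summed to 6298 to 8248 CPM in the C57BL/6J libraries and to 8231 and 8660 CPM in the libraries of NOD sample 2, but to 2413 and 1744 CPM in those of NOD sample 1. In all 40 genes both libraries of NOD sample 1 lay below the other 6 libraries. Mki67, the proliferation antigen, stood at 376 and 270 CPM there against 1232 to 2189 CPM elsewhere, and Cdk1, the kinase that starts mitosis, at 25.4 and 22.1 CPM against 52.9 to 84.2 CPM. The double-positive markers summed to 16287 and 14926 CPM in NOD sample 1 and to 13871 and 13724 CPM in NOD sample 2. Rag1 (6574 CPM in NOD sample 1 and 5230 CPM in NOD sample 2) and Arpp21 (1989 and 1423 CPM) weighed heavily in that gap. Cd4 (1246 and 1340 CPM) and Cd3e (915 and 993 CPM) were lower in NOD sample 1. Over the 10 markers the median log2 ratio of NOD sample 1 over NOD sample 2 was 0.007. NOD sample 1 also had the highest shares of reads outside annotated genes, 58.55% and 59.08%, against 39.98% to 54.61% in the other libraries. In bulk samples, fewer dividing cells and less RNA per cell cannot be told apart. Every member is therefore given with and without this sample.

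Promoter sequences were at hand for 7 of the 10 members (RefSeq, GRCm38.p6). Those of 4 members are printed as examples of the contrast described below: Ctcf, Smc1a and Smc3 were low in NOD sample 1 and Wapl was not. Not printed are those of Stag1 and Pds5a, which were also lowest in NOD sample 1, and of Pds5b, which was not. Each line gives the 250 bases before the start annotated by RefSeq on the gene's strand, 5′ to 3′, with every GC box (GGGCGG, searched on both strands) in capitals. The windows are chr8:105636288-105636537 for Ctcf, chrX:152016178-152016427 for Smc1a, chr19:53600146-53600395 for Smc3 and chr14:34673678-34673927 for Wapl, all on the plus strand.
Ctcf: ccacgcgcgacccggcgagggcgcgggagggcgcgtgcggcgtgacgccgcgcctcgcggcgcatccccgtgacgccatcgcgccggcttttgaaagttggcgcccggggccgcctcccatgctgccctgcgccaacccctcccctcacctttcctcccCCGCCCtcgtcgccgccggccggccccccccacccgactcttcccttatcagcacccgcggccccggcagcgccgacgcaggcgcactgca
Smc1a: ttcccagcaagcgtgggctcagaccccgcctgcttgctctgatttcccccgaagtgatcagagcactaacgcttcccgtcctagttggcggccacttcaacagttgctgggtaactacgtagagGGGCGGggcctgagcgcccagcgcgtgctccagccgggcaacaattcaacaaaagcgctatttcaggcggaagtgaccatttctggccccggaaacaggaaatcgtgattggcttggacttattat
Smc3: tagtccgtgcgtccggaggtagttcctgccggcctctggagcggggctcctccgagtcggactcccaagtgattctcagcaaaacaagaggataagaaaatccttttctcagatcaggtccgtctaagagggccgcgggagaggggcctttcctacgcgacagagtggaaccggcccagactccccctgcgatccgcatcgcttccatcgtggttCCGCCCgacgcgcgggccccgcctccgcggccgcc
Wapl: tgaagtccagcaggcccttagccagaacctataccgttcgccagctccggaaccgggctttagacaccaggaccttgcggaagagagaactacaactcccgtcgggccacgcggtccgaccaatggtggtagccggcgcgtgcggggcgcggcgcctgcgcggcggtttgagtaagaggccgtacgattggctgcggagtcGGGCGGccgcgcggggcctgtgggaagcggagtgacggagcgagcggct

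These 4 windows were rich in G and C, at 77.6% for Ctcf, 56.8% for Smc1a, 64.4% for Smc3 and 67.6% for Wapl, against a median of 52.4% over all 32851 promoters of that length. All 7 member promoters held a GC box, as did 32.7% of all promoters, and each of the 4 printed here held 1, between 35 bases (Smc3) and 126 bases (Smc1a) before the start. The E2F letters TTTCCCGC, TTTCGCGC, TTTGGCGC or TTTGCCGC, bound by a family of cell-cycle regulators, were found in Stag1 and Pds5a and in 1.86% of all promoters. The CCAAT letters were found in Smc1a, Stag1, Wapl and Pds5b and in 33.8% of all promoters. The letters TTTGAA, part of the element called the cell-cycle homology region, were found in Ctcf and Pds5b and in 16% of all promoters. The letters searched for ETS, NRF1, YY1 and CTCF were found in none of the 7 member promoters. They were found in 6.91%, 0.782%, 0.207% and 1.02% of all promoters, in that order. The set of all promoters was not matched to the members for G and C. All motifs were searched on both strands, and a match is a description of the letters in the window.

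None of the 10 genes passed the test between strains, while 3.68% of all 17291 tested genes did (637 genes, edgeR quasi-likelihood F-test, Benjamini-Hochberg adjusted p under 0.05, two-sided), 1.78% lower and 1.91% higher in NOD. The count of members was also 0 with DESeq2, which called 4.48% of all genes, and with the B number as a replicate block, which called 2.97%. At an unadjusted p under 0.05 the count of members was 0 in the main edgeR fit, 0 with DESeq2 and 2 (Rad21 and Smc1a) with limma on the 8 separate libraries. The shares of all genes in the same fits were 13.1%, 10.4% and 14.8%. Other edgeR fits gave 2 members without a low-count filter, 2 in the T1 libraries and 2 with B numbers crossed as blocks. They gave 1 with the replicate block and 1 with protein-coding genes only. RLE scaling, at least 10 counts in every sample, thinning to the shallowest sample and the T2 libraries gave 0. Shares of all genes were not computed for these other fits. In the main edgeR fit the lowest adjusted p of a member was 0.421, for Smc1a. All 10 log2 fold changes (NOD over C57BL/6J) were below 0, as were 47.7% of those of all tested genes, and their median was -0.16 against 0.02 for all genes. Without NOD sample 1 the number below 0 was 7, the median -0.10 and the furthest from 0 was -0.19, for Smc1a. The fit leaves room for differences it could not call: on simulated data with these depths it recovered 38% to 44% of genes changed 2-fold and 0% to 4% of genes changed 1.5-fold.

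**Figure D1:**
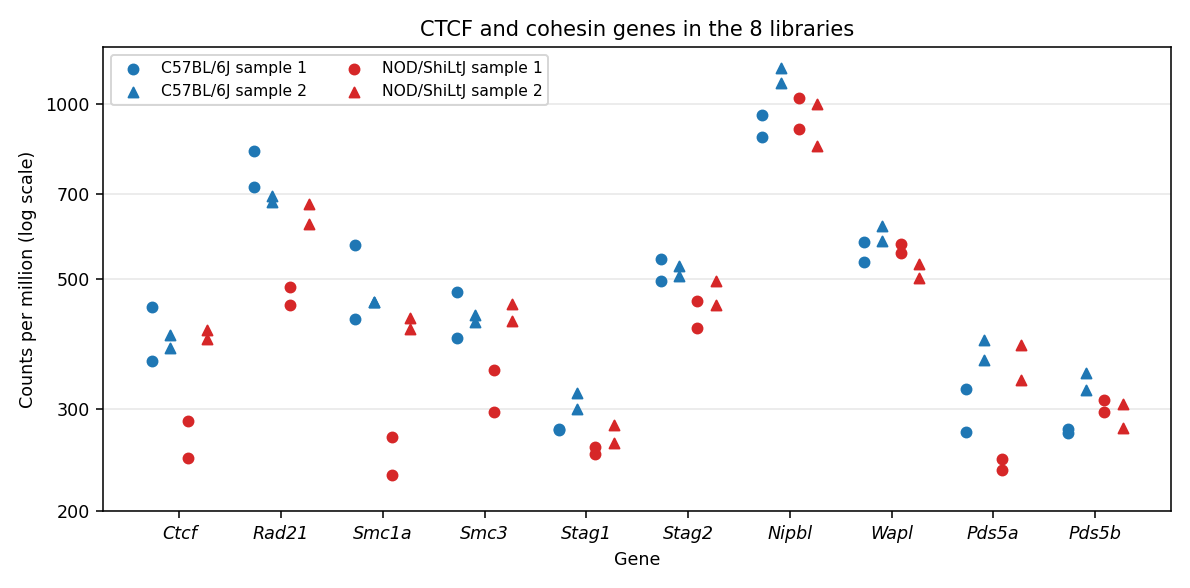
Level of the 10 genes in CPM (log axis) in each of the 8 libraries; circles are libraries of sample 1 and triangles of sample 2, blue for C57BL/6J and red for NOD/ShiLtJ. The red circles of Ctcf (286 and 247 CPM) and Smc1a (268 and 231 CPM) lie below every other point of these genes, while those of Wapl and Nipbl lie among the rest.

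Ctcf (ENSMUSG00000005698, chr8:105636568-105682922, GRCm38, plus strand), the zinc finger protein that marks loop anchors, stood at 449 and 362 CPM in C57BL/6J sample 1, 381 and 401 CPM in C57BL/6J sample 2, 286 and 247 CPM in NOD sample 1, and 410 and 395 CPM in NOD sample 2. The libraries of NOD sample 2 lay within the range of C57BL/6J and those of NOD sample 1 below it, so the strains overlapped. The means were 396 ± 12.7 and 336 ± 95.4 CPM (SD, n = 2), with a log2 fold change of -0.24 ± 0.21 (SE), a 95% interval of -0.71 to 0.23 and an adjusted p of 0.760 in edgeR. Without NOD sample 1 the value was 0.03, with an interval of -0.44 to 0.49. Gm5914, a noncoding gene on the other strand, shares 370 exonic bases with Ctcf, which is 7.61% of the exonic bases of Ctcf, and although the library kit marks strand, whether the counting used it is not given in the sources used here.

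Of the 3 ring genes, Smc1a and Rad21 had the lowest fold changes of all members. Smc1a (ENSMUSG00000041133, chrX:152016428-152062694), an ATPase arm of the ring, stood at 573 and 427 CPM in C57BL/6J sample 1, 458 and 457 CPM in C57BL/6J sample 2, 268 and 231 CPM in NOD sample 1, and 411 and 429 CPM in NOD sample 2. The highest NOD library, at 429 CPM, lay just above the lowest C57BL/6J library, at 427 CPM, so the strains overlapped by that margin. The log2 fold change was -0.52 ± 0.24 (95% interval -1.06 to 0.03, adjusted p = 0.421 in edgeR). Without NOD sample 1 it was -0.19 (adjusted p = 1.000). Without NOD sample 2, which leaves NOD sample 1 alone for its strain and assumes that it varies like the other samples, it was -0.94 and passed (adjusted p = 0.00432). This was the only one of the 15 alternative fits in which any member passed, and the adjusted p of Smc1a ranged over them from 0.00432 to 1.000.

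Smc3 (ENSMUSG00000024974, chr19:53600398-53645833), the partner arm of Smc1a, stood at 476, 396, 422 and 435 CPM in the C57BL/6J libraries, 350 and 296 CPM in NOD sample 1, and 424 and 453 CPM in NOD sample 2. Its NOD sample 2 libraries were inside the C57BL/6J range and its NOD sample 1 libraries below it. The log2 fold change was -0.17 ± 0.19 (95% interval -0.60 to 0.25, adjusted p = 0.820 in edgeR), and 0.02 without NOD sample 1, with an interval of -0.45 to 0.50.

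Rad21 (ENSMUSG00000022314, chr15:51962240-51991747, minus strand), the kleisin that closes the ring and is cut by separase at anaphase, stood at 831, 720, 679 and 694 CPM in the C57BL/6J libraries, 485 and 451 CPM in NOD sample 1, and 622 and 673 CPM in NOD sample 2. All NOD libraries lay below all C57BL/6J libraries, with 673 and 679 CPM as the nearest values. The log2 fold change was -0.38 ± 0.20 (95% interval -0.83 to 0.06, adjusted p = 0.494 in edgeR), and -0.17 without NOD sample 1, with an interval of -0.66 to 0.32. Rad21 and Stag2 were the 2 members whose strains did not overlap, both lower in NOD, against 8.84% of all tested genes that were lower in NOD without overlap and 17.0% in either direction. Libraries that share a B number are not independent, and neither gene passed the test.

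STAG1 and STAG2 are alternative subunits that mark separate forms of cohesin. Stag2 (ENSMUSG00000025862, chrX:42149317-42277185) stood at 541, 497, 506 and 527 CPM in the C57BL/6J libraries, 459 and 413 CPM in NOD sample 1, and 496 and 452 CPM in NOD sample 2. The strains were separated by a margin of 497 to 496 CPM, with a log2 fold change of -0.17 ± 0.16 (95% interval -0.53 to 0.20, adjusted p = 0.791 in edgeR). Stag1 (ENSMUSG00000037286, chr9:100597798-100959375) stood at 276, 277, 300 and 319 CPM in the C57BL/6J libraries, 258 and 251 CPM in NOD sample 1, and 281 and 262 CPM in NOD sample 2. The strains overlapped in Stag1, which had a log2 fold change of -0.13 ± 0.16 (95% interval -0.50 to 0.24, adjusted p = 0.850 in edgeR). Without NOD sample 1 the values were -0.11 for Stag2 and -0.09 for Stag1.

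Nipbl and Wapl, the loader and the release factor, had intervals on both sides of 0, as did every other member. Nipbl (ENSMUSG00000022141, chr15:8290617-8444463, minus strand), the loader, stood at 957, 878, 1084 and 1153 CPM in the C57BL/6J libraries, 1025 and 905 CPM in NOD sample 1, and 1000 and 847 CPM in NOD sample 2. Wapl (ENSMUSG00000041408, chr14:34673928-34747983), which opens the ring for release, stood at 579, 536, 581 and 616 CPM in the C57BL/6J libraries, 574 and 555 CPM in NOD sample 1, and 531 and 503 CPM in NOD sample 2. In both genes NOD sample 1 lay within the C57BL/6J range. The log2 fold change was -0.09 ± 0.18 for Nipbl (95% interval -0.49 to 0.32, adjusted p = 0.913 in edgeR) and -0.08 ± 0.16 for Wapl (95% interval -0.45 to 0.30, adjusted p = 0.918), or -0.12 and -0.14 without NOD sample 1.

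The PDS5 paralogs, which bind cohesin and act both in its release and in its protection, parted in NOD sample 1. Pds5a (ENSMUSG00000029202, chr5:65605721-65698273, minus strand) stood at 324, 274, 364 and 394 CPM in the C57BL/6J libraries, 246 and 235 CPM in NOD sample 1, and 385 and 336 CPM in NOD sample 2. Pds5b (ENSMUSG00000034021, chr5:150673739-150810690) stood at 277, 273, 323 and 345 CPM in the C57BL/6J libraries, 310 and 296 CPM in NOD sample 1, and 306 and 278 CPM in NOD sample 2. Pds5a was thus lowest in NOD sample 1, and Pds5b was not. The log2 fold change was -0.15 ± 0.22 for Pds5a (95% interval -0.66 to 0.35, adjusted p = 0.870 in edgeR), 0.11 without NOD sample 1, and -0.01 ± 0.17 for Pds5b (95% interval -0.39 to 0.38, adjusted p = 0.992), or -0.04 without NOD sample 1.

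**Figure D2:**
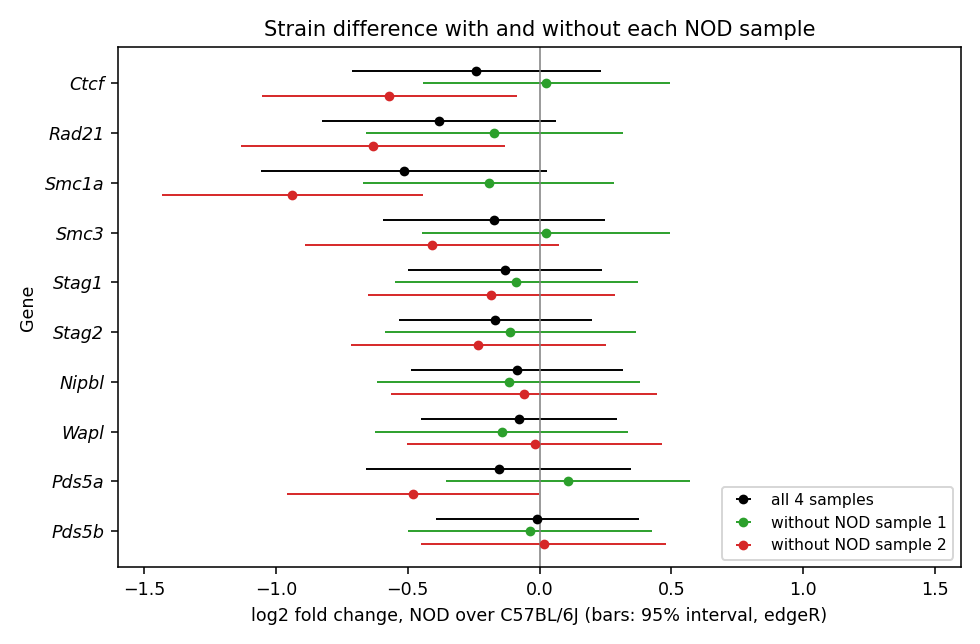
Log2 fold change (NOD over C57BL/6J) of each gene with its 95% interval from edgeR, for all 4 samples (black), without NOD sample 1 (green) and without NOD sample 2 (red). Smc1a moves from -0.52 to -0.19 without NOD sample 1 and to -0.94 without NOD sample 2, and of the 3 fits drawn, Ctcf, Smc3 and Pds5a lie above 0 in the one without NOD sample 1.

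The 10 genes differed in how far NOD sample 1 lay from the other libraries, without falling into groups that held by every measure. Both libraries of NOD sample 1 were below the other 6 libraries in 6 members (Ctcf, Rad21, Smc1a, Smc3, Stag1 and Pds5a), against 13.2% of all tested genes. On the log2 scale, NOD sample 1 differed from NOD sample 2 by -0.74 in Smc1a, -0.59 in Ctcf, -0.58 in Pds5a, -0.45 in Rad21 and -0.43 in Smc3. The other members differed by -0.12 in Stag2, -0.09 in Stag1, 0.06 in Pds5b, 0.07 in Nipbl and 0.13 in Wapl. A drop of at least 0.5 was found in 3 of the 10 members and in 14.3% of all tested genes. The middle of all tested genes, between the quartiles, ran from -0.26 to 0.35, and the proliferation list had a median of -1.95. The difference between the C57BL/6J samples, sample 1 over sample 2, ran from -0.33 in Pds5a to 0.17 in Rad21. The T libraries of a sample were furthest apart, as a ratio, for Smc1a in C57BL/6J sample 1, at 573 and 427 CPM. The part of the low proliferation genes and of the reads outside genes in these differences was not tested.

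**Figure D3:**
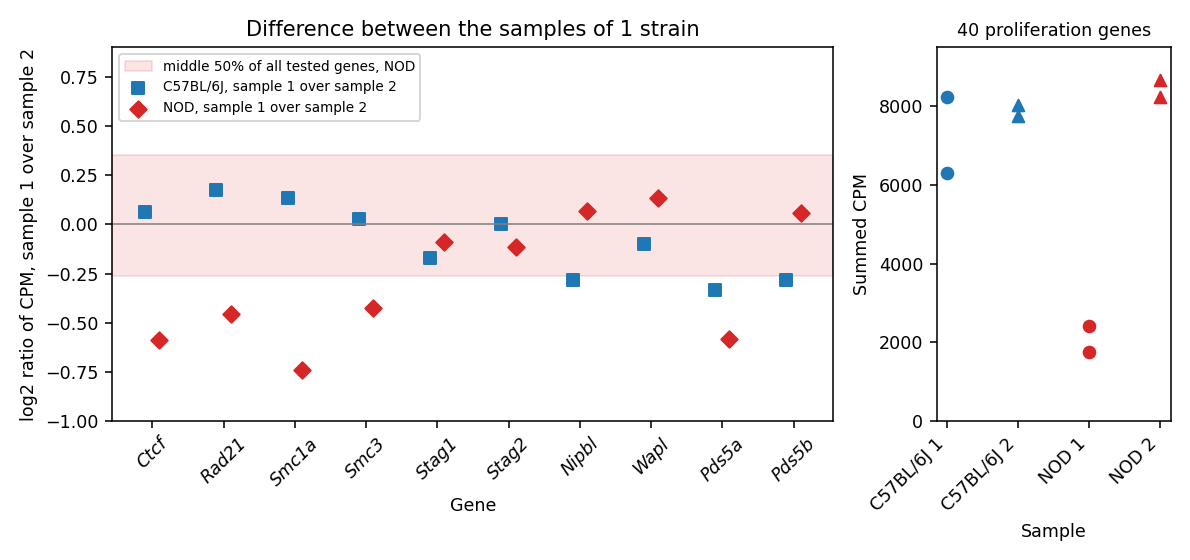
Left, the log2 ratio of sample 1 over sample 2 for each gene in C57BL/6J (blue squares) and NOD (red diamonds), with the range between the quartiles of all tested genes in NOD shaded; right, the summed CPM of 40 proliferation genes in each library. Ctcf, Rad21, Smc1a, Smc3 and Pds5a lie below the shaded range in NOD, and the libraries of NOD sample 1 sit at 2413 and 1744 CPM.

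Ratios within a library do not depend on its depth, and 5 were computed from counts per kilobase of annotated exon. The smallest p that the exact permutation test can give with 2 samples against 2 is 0.333, so none could pass. The ratio of Smc1a to Smc3, whose proteins pair with each other in the ring, was 1.15, 1.04, 1.04 and 1.01 in the C57BL/6J libraries, 0.734 and 0.750 in NOD sample 1, and 0.931 and 0.909 in NOD sample 2. All NOD libraries were below all C57BL/6J libraries, those of NOD sample 2 included, and the means of the samples were 1.07 ± 0.0544 and 0.831 ± 0.127 (SD, n = 2, exact two-sided permutation p = 0.333). The libraries of the strains overlapped in each of the other ratios. Both strains were aligned to GRCm38, and whether their reads aligned equally well in Smc1a and Smc3 was not tested. Stag2 made up 71.6% ± 1.74 of Stag1 plus Stag2 in C57BL/6J and 71.1% ± 0.275 in NOD, with all 8 libraries between 70.1% and 73.6%. Pds5a made up 35.8% and 36.6% of Pds5a plus Pds5b in the C57BL/6J samples. It made up 28.7% in NOD sample 1 and 38.6% in NOD sample 2, so the NOD samples lay on either side of C57BL/6J. The size of these shares depends on the length used for each gene, which was the same for both strains. Per kilobase of the longest protein-coding transcript, the C57BL/6J means were 37.9 CPM for Pds5a and 41.0 CPM for Pds5b. By that length they were 83.9 CPM for Stag2 and 47.4 CPM for Stag1. The ratio of Wapl to Nipbl was 0.813 ± 0.0722 in C57BL/6J and 0.813 ± 0.0270 in NOD, and that of Ctcf to Rad21 was 0.475 ± 0.0253 and 0.520 ± 0.0340 (n = 2, exact permutation p = 0.333).

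**Figure D4:**
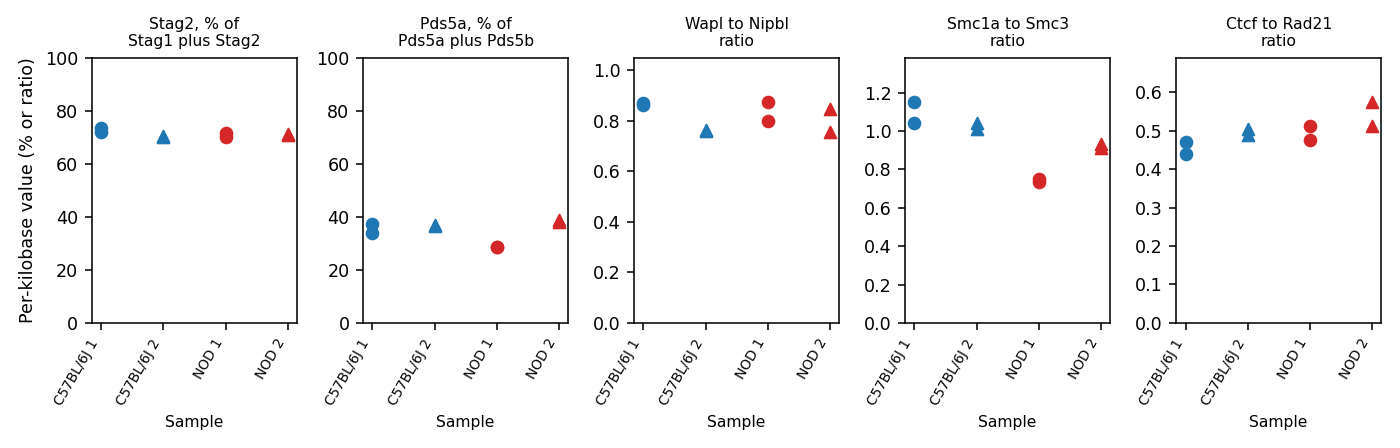
Per-kilobase shares (%) and ratios of member pairs in each library, all axes from 0, with circles for sample 1 and triangles for sample 2, blue for C57BL/6J and red for NOD. The Smc1a to Smc3 ratio is at least 1.01 in every C57BL/6J library and at most 0.931 in every NOD library, and the Stag2 share stays between 70.1% and 73.6%.

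Per kilobase of annotated exon, Rad21 was the most abundant member in all 8 libraries, with a median of 160 CPM per kb, and Nipbl the next, with 104. Wapl, Ctcf, Smc3 and Smc1a followed with medians of 85.3, 79.8, 76.3 and 74.2 CPM per kb, and their ranges over libraries overlapped, so that they had no order beyond their spread. Stag2 ranged from 49.9 to 65.4 CPM per kb, above Pds5b (30.6), Stag1 (23.5) and Pds5a (17.1) in every library. The order below Rad21 depends on the length used, with 19335 bases annotated as exon in Pds5a. Per kilobase of the longest protein-coding transcript, chosen after the data were seen, Stag1 (40.6 to 51.6), Pds5b (36.8 to 46.5) and Pds5a (26.3 to 44.1) overlapped, and Nipbl ranked from 2 to 5 over the libraries, with a range that overlapped those of Ctcf and Smc1a. Rad21 was the highest in every library with either length.

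By the root mean square difference of mean-centred log2 CPM over the 8 libraries, the genes whose profile was nearest to that of Ctcf, among 7890 coding genes with at least 10 CPM, were Zfp395 (0.0452), Gtf2a1 (0.0484), Cse1l (0.0497), Snrnp200 (0.0509) and Hcfc1 (0.0589). Of the members, Smc3 came nearest, at rank 25 (0.0799), and Rad21 was at rank 126 (0.107). Pds5a and Smc1a were at ranks 577 and 587, and Nipbl, Wapl and Pds5b at ranks 3438, 3448 and 3830. The 8 libraries come from 4 samples, and the distance is a description.

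Other genes of chromosome structure were taken from 4 lists with 56 genes, of which 52 were tested and 0 passed (2 at an unadjusted p under 0.05, with a median log2 fold change of -0.19). The cohesin regulators, 15 tested of 17, had 9 values below 0 and a median of -0.42, or 0.25 without NOD sample 1. Mau2, the partner of the loader Nipbl, stood at 123 ± 21.4 and 141 ± 6.11 CPM (adjusted p = 0.770 in edgeR), and Esco1, which acetylates cohesin, at 91.2 ± 8.63 and 103 ± 15.4 CPM (adjusted p = 0.797). Sgo2a, a shugoshin that protects centromeric cohesin, stood at 60.6 ± 4.30 and 44.0 ± 41.3 CPM, with 18.8 and 10.3 CPM in NOD sample 1 against 54.2 to 78.7 CPM elsewhere. The germline cohesin subunits Smc1b and Rad21l were too low to be tested.

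Among 11 tested architectural proteins the median was -0.18 (-0.05 without NOD sample 1). Satb1, a genome organiser of thymocytes, stood at 5852 ± 473 and 4885 ± 624 CPM (log2 fold change -0.26 ± 0.20, adjusted p = 0.718 in edgeR), Chd4, a remodeller ATPase, at 1019 ± 91.5 and 836 ± 96.9 CPM (adjusted p = 0.614), and Bptf, another remodeller subunit, at 922 ± 113 and 911 ± 29.0 CPM. Among 15 tested condensin and SMC5/6 genes the median was -0.16 (0.10 without NOD sample 1). Smc4, a condensin arm, stood at 940 ± 11.9 and 843 ± 153 CPM and Smc6 at 201 ± 2.94 and 184 ± 32.0 CPM. Ncapd2, a condensin I subunit, stood at 423, 301, 344 and 336 CPM in the C57BL/6J libraries, 73.3 and 55.0 CPM in NOD sample 1, and 206 and 215 CPM in NOD sample 2. All NOD libraries were below all C57BL/6J libraries in Ncapd2, whose log2 fold change was -1.36 ± 0.60 (95% interval -3.03 to 0.31), which did not pass. Without NOD sample 1, which leaves NOD sample 2 alone for its strain and assumes that it varies like the other samples, the value was -0.75 with an adjusted p of 0.0453.

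Among 11 tested topoisomerase and lamina genes the median was -0.24 (0.07 without NOD sample 1). Top2a, the topoisomerase of dividing cells, stood at 269 and 154 CPM in NOD sample 1 against 887 to 1175 CPM elsewhere, whereas Top2b, its paralog outside division, stood at 1162 ± 38.3 and 980 ± 91.0 CPM (adjusted p = 0.675 in edgeR). Lbr, the lamin B receptor, stood at 569 ± 6.75 and 705 ± 39.7 CPM (log2 fold change 0.31 ± 0.16, adjusted p = 0.510). The fit without NOD sample 2 leaves NOD sample 1, low in the proliferation genes, alone for its strain. Top2a, Bub1, Plk1 and Aurkb are on these lists and on the proliferation list. Their log2 fold changes in that fit were -2.32, -1.41, -2.52 and -2.41. The count of genes passing in that fit thus restates in part the low proliferation genes of NOD sample 1. Without NOD sample 2, 17 of the genes on these lists passed, all lower in NOD, against 8.08% of all genes tested in that fit. Without NOD sample 1, under the same assumption for a lone NOD sample, 2 passed, Ncapd2 lower and Pttg1, the securin that restrains separase, higher (1.61, adjusted p = 0.00113), against 5.06% of all genes.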

How the data were processed

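Total RNA of sorted double-positive thymocytes was sequenced in 8 libraries, 4 per strain. The deposited values are raw counts, 1 whole number for each Ensembl identifier, and carry no scaling. The tools named in the submitters' processing notes are STAR 2.5.0a and HTSeq 0.6.1, with GRCm38 as the build for both strains. Whether reads of each strain aligned equally well to this build was not tested for any gene, Rad21, Stag2 and the Y-linked genes included. Annotation release, strand setting and read filters are not given in the sources used here. Reads outside annotated genes (39.98% to 59.08% of those listed per library) and ambiguous reads (0.69% to 2.38%) were left out. Symbols, coordinates and exon lengths came from GENCODE M21 (53360 of 53465 identifiers matched).

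Counts were added over the T libraries of each B number, giving 4 samples, with 23.533 to 30.371 M reads in genes per NOD library and 8.527 to 15.702 M per C57BL/6J library. Genes were kept with filterByExpr, scaled by TMM and compared in edgeR 4.0.16 (R 4.3.3) by quasi-likelihood F-tests (robust, strain only, 2 residual degrees of freedom); intervals use the SE and the total degrees of freedom. DESeq2 1.42.0 and limma 3.58.1 served as alternatives. The fit was tested on simulated data with 200 changed genes (16794 to 16854 genes, 2 samples against 2). Ratios were compared with exact permutation tests (scipy 1.17.1). B numbers were not used as pairs in the main fit. The deviations of same-numbered samples from their strain means had a correlation of -0.12 over genes. With 2 samples per strain this cannot show whether same-numbered samples shared a batch.

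The members and lists were chosen with earlier results of these data known. Named were all members, and of each further list the genes that passed and the 3 with the highest mean CPM, with the 5 genes nearest to Ctcf in profile; Pttg1, Smc5 and Lmna were chosen after their values were seen.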

Additional observations from a re-analysis of the deposited data

Results flagged for a closer look

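Chd4, a remodeller ATPase on the list of architectural proteins, had 1 library far from the others of its strain: the highest C57BL/6J library stood at 1220 CPM, with a gap to the next that was 0.863 of the range of the 4 libraries. It was the only one among 44 groups of 4 libraries examined, where chance gives about 1 in 20, and libraries with the same B number are not independent.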

How the results depend on the processing

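With 2 samples per strain the fit was limited to large differences. Of 150 refitted member values, 139 kept their direction and their side of the threshold. With the replicate block on the B number, 513 genes passed in all, 0 of them members. Crossed pairing of the B numbers was added after seeing the data, because the correlation of same-numbered samples was below 0 (-0.12). With crossed pairing 768 passed, again 0 of them members. Leaving out 1 sample moved the count of all genes between 256 and 1389, that of members between 0 and 1 and that of the further lists between 0 and 17. All genes passing numbered 1188 without a low-count filter, 311 with at least 10 counts in every sample and 342 from the T2 libraries. On the further lists 1 gene, Smc5, passed with limma on 8 libraries. Leaving out 1 sample moved the log2 fold change across 0 for Ctcf (-0.570 to 0.0252), Smc3 (-0.409 to 0.0242), Nipbl (-0.225 to 0.0544), Pds5a (-0.481 to 0.109) and Pds5b (-0.148 to 0.131). The highest values came without NOD sample 1 for Ctcf, Smc3 and Pds5a and without C57BL/6J sample 2 for Nipbl and Pds5b. Pds5b was also above 0 without a filter (0.0026), with the strict filter (0.0104) and in the T1 libraries (0.0356). The Wapl to Nipbl difference of -0.000426 became 0.0446 in the T2 libraries. The cause of these shifts was not tested.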

Other observations

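Among the further genes of chromosome structure, chosen after their values were seen, Smc5, an arm of the SMC5/6 complex that acts in DNA repair, stood at 143, 157, 152 and 177 CPM in the C57BL/6J libraries and 213, 213, 241 and 205 CPM in the NOD libraries. All NOD libraries were higher, NOD sample 1 included, with a log2 fold change of 0.51 ± 0.16 and an adjusted p of 0.154 in edgeR (0.0480 with limma on 8 libraries). Lmna, which encodes the A-type lamins, was low, at 2.78 and 1.58 CPM in the C57BL/6J samples and 5.51 and 4.48 CPM in the NOD samples. The 95% interval of its log2 fold change ran from 0.26 to 2.13, with an adjusted p of 0.210 in edgeR.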
